A study of Mus musculus with 5 samples.

Results

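Immunoglobulin heavy-chain variable (Ighv) segments were read in CRC tumours of mice kept in the cold or at thermoneutral temperature. The members are the rows of the count table whose gene name starts with Ighv, which were 185 of 54113 named rows. RNA was sequenced from 5 tumours of C57BL/6 mice, 3 kept at 30 °C and 2 at 4 °C for 2 weeks. In the study, colorectal (CRC) tumours of this strain were grown from the mouse colon adenocarcinoma line MC-38. The labels name neither that line nor the site of the graft, and they give no genetic change or drug for either group. The labels call the samples CRC and tumour tissue, while the markers fixed for epithelium were low: 10 genes such as Epcam and Krt8 summed to 20.0 to 173 counts per 1000000 after TMM scaling (TMM-scaled CPM) at 30 °C and to 18.6 and 90.9 at 4 °C. B cell transcripts were abundant, with 1537 to 4556 TMM-scaled CPM over 13 genes. The splenic mesenchyme genes Tlx1, Nkx2-5 and Nkx2-3 were present too. Pancreatic acinar genes summed to 370439 TMM-scaled CPM in 30 °C replicate 2 and to 2612 in 4 °C replicate 2, against at most 78.0 in the other libraries. The markers thus leave the tissue of the libraries in doubt, and an Ighv level here is that of a library labelled as tumour.

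A heavy chain is made from a V, a D and a J segment, which are joined in the DNA of a developing B cell by the RAG recombinase. Each mature B cell or plasma cell therefore transcribes mainly 1 productive V segment together with its constant gene, and a plasma cell holds far more of this transcript than a resting B cell. Families of V segments share sequence and are numbered in the gene name, so that Ighv1-26 belongs to family 1. Families 5 and 2 lie nearest the D segments, and families 1 and 8 lie farthest away. In bulk RNA, fewer cells that use a segment and less transcript per cell cannot be told apart.

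The segments lie on the minus strand of chromosome 12 of GRCm38, from 113572927 to 116010093, a span of 2437 kb. Of the 185 rows, 113 are annotated as functional V genes in GENCODE M21, 68 as V pseudogenes, and 4 carry the symbols Ighv1-13 and Ighv5-8, which stand on 2 rows each and were assigned to no gene. Counts were found in 131 rows in at least 1 library and in 111 rows in all 5, while 54 rows stood at 0 throughout. Among the functional genes, 99 had a count in every library. The 5 that had none were Ighv7-2, Ighv16-1, Ighv1-24, Ighv1-62-1 and Ighv8-13. For these rows, 0 counts allow up to 0.148 to 0.185 CPM per library (3 counts).

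The sequences below are the last 300 bases of the germline V exons of the segments that led a library, as given in the GENCODE M21 transcripts. Capitals mark the bases from the last in-frame cysteine codon to the end of the exon. The third complementarity-determining region (CDR3), where a V segment meets D and J, begins after that cysteine codon. On GRCm38, the stretch of Ighv1-26 lies at chr12:114788372-114788671, Ighv1-53 at chr12:115158403-115158702 and Ighv1-80 at chr12:115912344-115912643.
Ighv1-26: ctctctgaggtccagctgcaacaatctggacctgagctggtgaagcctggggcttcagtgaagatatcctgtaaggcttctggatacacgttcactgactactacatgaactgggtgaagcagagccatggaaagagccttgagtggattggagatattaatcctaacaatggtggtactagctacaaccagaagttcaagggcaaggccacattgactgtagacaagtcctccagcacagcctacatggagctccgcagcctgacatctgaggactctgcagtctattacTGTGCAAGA
Ighv1-53: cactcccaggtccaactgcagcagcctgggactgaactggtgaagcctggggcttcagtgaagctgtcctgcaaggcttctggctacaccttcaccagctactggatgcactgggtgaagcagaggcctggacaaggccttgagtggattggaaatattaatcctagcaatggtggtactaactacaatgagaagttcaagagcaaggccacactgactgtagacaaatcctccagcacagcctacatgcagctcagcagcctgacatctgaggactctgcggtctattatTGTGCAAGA
Ighv1-80: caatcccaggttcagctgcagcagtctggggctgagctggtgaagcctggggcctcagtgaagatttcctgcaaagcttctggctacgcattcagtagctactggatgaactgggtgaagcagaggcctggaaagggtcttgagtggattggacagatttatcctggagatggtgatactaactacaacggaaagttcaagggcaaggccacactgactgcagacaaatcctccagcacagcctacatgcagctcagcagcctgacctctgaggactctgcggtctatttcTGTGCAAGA
The whole exons are 305 bases long in all 3 and end in the same 9 bases. They differ from one another by 33 to 45 bases (85.2% to 89.2% identity), and the nearest functional neighbour of Ighv1-26, Ighv1-18, differs from it by 8 bases.

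The next set is shown because each of these segments stood far higher in 1 library than in the other 4. Length, build and capitals are as above. Ighv5-16 lies at chr12:113838526-113838825, Ighv7-1 at chr12:113896408-113896707, Ighv10-3 at chr12:114523441-114523740, Ighv1-36 at chr12:114879888-114880187 and Ighv1-39 at chr12:114914599-114914898.
Ighv5-16: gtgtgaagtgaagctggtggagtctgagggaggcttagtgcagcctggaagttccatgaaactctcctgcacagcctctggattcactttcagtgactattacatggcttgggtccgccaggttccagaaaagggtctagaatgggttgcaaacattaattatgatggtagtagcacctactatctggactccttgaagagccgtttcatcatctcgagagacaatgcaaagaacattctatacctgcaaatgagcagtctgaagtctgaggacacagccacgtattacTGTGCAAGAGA
Ighv7-1: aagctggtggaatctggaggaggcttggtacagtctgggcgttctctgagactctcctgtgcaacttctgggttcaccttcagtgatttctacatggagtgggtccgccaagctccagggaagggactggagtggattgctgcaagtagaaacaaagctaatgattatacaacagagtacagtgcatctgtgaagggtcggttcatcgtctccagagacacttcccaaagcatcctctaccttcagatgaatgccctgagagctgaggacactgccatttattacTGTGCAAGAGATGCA
Ighv10-3: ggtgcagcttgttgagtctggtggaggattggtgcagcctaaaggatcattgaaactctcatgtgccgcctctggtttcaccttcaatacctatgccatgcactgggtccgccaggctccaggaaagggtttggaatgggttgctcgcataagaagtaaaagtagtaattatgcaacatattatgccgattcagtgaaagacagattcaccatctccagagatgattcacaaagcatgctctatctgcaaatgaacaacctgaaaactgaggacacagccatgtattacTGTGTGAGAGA
Ighv1-36: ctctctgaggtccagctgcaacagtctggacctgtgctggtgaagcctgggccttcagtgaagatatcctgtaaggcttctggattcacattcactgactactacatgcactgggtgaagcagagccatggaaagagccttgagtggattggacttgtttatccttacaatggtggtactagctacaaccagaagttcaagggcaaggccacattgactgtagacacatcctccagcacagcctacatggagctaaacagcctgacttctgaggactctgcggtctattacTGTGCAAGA
Ighv1-39: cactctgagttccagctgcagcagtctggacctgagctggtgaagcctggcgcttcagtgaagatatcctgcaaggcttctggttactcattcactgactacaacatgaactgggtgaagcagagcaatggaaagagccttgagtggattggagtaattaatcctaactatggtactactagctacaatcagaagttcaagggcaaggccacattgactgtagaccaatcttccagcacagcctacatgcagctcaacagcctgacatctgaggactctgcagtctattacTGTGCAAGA
These come from 4 families. Ighv1-36 and Ighv1-39 share 90.5% of their bases, whereas members of different families in the set share 61.3% to 74.1%. In all 5, every 100-base window of the transcript occurs in no other segment of the annotation.

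The question was whether cold changed the amount of heavy-chain variable transcript. Ighv counts summed to 63788, 43050 and 77569 in the 3 libraries at 30 °C, out of 17484355, 16534487 and 20320525 counts on named genes. At 4 °C they summed to 72763 and 27565, out of 18613577 and 16191708. These are 0.365%, 0.260% and 0.382% of the counts at 30 °C and 0.391% and 0.170% at 4 °C.
After TMM scaling the summed level was 3395, 3536 and 3387 CPM at 30 °C and 3619 and 1651 CPM at 4 °C. The libraries at 30 °C lay close together, 4 °C replicate 1 lay above all of them, and 4 °C replicate 2 lay far below. On the log2 scale the means were 11.75 ± 0.035 (SD, n = 3) against 11.26 ± 0.80 (SD, n = 2), a difference of −0.49 (two-sided exact permutation test, p = 0.8). The 3 libraries against 2 allow 10 splits, so that no p of this test can fall below 0.2 and none can reach 0.05. The difference rests on 4 °C replicate 2, and without it the difference was 0.074. That library also held pancreatic acinar transcripts. With the acinar genes removed from all libraries before scaling, the difference was −0.49. Nothing in the labels says whether libraries come from separate litters or days, so the p-values measure only the spread between these samples.

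Heavy-chain constant genes encode the part of the antibody that sets its class. Summed over 8 constant genes, they stood at 14048, 12168 and 11464 TMM-scaled CPM at 30 °C and at 13606 and 12995 at 4 °C, so that 4 °C replicate 2 did not stand apart for them. Ighv counts per constant count were 0.242, 0.291 and 0.295 at 30 °C and 0.266 and 0.127 at 4 °C. The log2 difference was −0.58 (two-sided exact permutation test, p = 0.4), and −0.047 without 4 °C replicate 2. The constant genes are also counted in transcripts that carry no V segment.
Segments of the kappa light chain (160 rows whose name starts with Igkv) stood at 5590, 5513 and 4819 TMM-scaled CPM at 30 °C and at 6037 and 4242 at 4 °C. There were 0.607, 0.641 and 0.703 Ighv counts per Igkv count at 30 °C and 0.599 and 0.389 at 4 °C. Both values at 4 °C lay below all values at 30 °C (two-sided exact permutation test, p = 0.2, the smallest possible), but 4 °C replicate 1 by only 0.599 against 0.607.

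Markers of B cells were not low in 4 °C replicate 2. The 13 genes of this list, among them Ms4a1 (CD20) and the B cell receptor subunits Cd79a and Cd79b, summed to 1537, 2285 and 4044 TMM-scaled CPM at 30 °C and to 4556 and 3758 at 4 °C. Ighv counts per B cell list count were 2.21, 1.55 and 0.838 at 30 °C and 0.794 and 0.439 at 4 °C, a ratio without overlap between the groups. Its log2 difference was −1.27 (two-sided exact permutation test, p = 0.2), with a range of −1.69 to −0.84 when each library was left out in turn. Within the 30 °C group alone this ratio spanned from 0.838 to 2.21, and the gap between 30 °C replicate 3 and 4 °C replicate 1 was small.
Per count of the 11 plasma cell genes, such as Jchain, Xbp1 and Sdc1, there were 1.78, 1.46 and 1.44 Ighv counts at 30 °C and 1.28 and 0.686 at 4 °C. The class of the constant transcripts differed among libraries at the same temperature as well. Ighm, the gene of IgM, made up 29.4%, 37.1% and 54.3% of constant counts at 30 °C and 54.0% and 54.5% at 4 °C, while the IgG genes made up 61.0%, 48.1% and 26.7% against 35.1% and 28.9%. The part of cell composition in the Ighv levels was not tested.

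**Figure D1:**
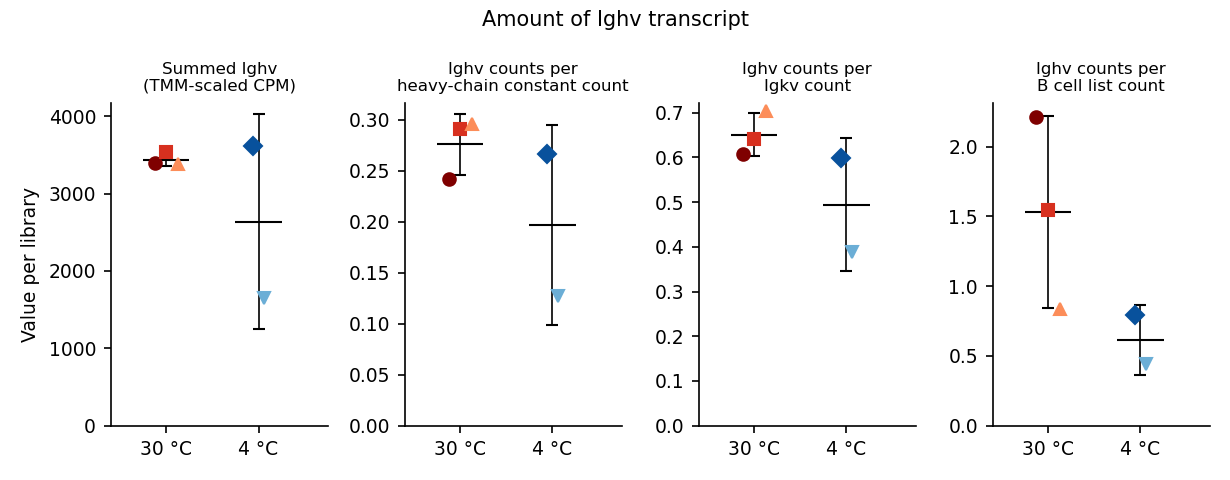
Amount of Ighv transcript in each library at 30 °C (3 libraries) and 4 °C (2 libraries), as summed TMM-scaled CPM and as counts per heavy-chain constant, per Igkv and per B cell list count. Points are libraries, lines are means and bars are SD, and every axis starts at 0. In the first 3 panels 4 °C replicate 2 lies lowest and 4 °C replicate 1 lies near or among the 30 °C libraries, and in the last both 4 °C libraries lie below the 30 °C libraries.

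The next question was how evenly the segments were used. Each segment was given as its share of the summed Ighv counts of the library, which needs no scaling between libraries. Evenness was given as the effective number of segments, the number of equally used segments that would have the same Shannon entropy. It was 50.7, 56.6 and 56.1 at 30 °C and 57.1 and 55.8 at 4 °C. The means were 54.5 ± 3.31 (SD, n = 3) against 56.5 ± 0.915 (SD, n = 2), and their difference of 2.00 was smaller than the SD at 30 °C (two-sided exact permutation test, p = 0.6). The lowest value was that of 30 °C replicate 1, and the difference was 0.092 without that library and 3.07 without 30 °C replicate 2.
The inverse Simpson index, which weights the leading segments more, gave 35.9, 40.4 and 40.6 at 30 °C and 41.3 and 40.0 at 4 °C, again lowest in 30 °C replicate 1. With all libraries thinned by calculation to 27565 Ighv counts, 112, 118 and 116 segments were expected with a count at 30 °C and 115 and 117 at 4 °C. To reach 50% of the Ighv counts took 14, 16 and 15 segments at 30 °C and 15 in each library at 4 °C. The 10 leading segments of each library held 41.0%, 36.9% and 38.8% at 30 °C and 39.7% in both libraries at 4 °C, means of 38.9% ± 2.03 (SD, n = 3) against 39.7% ± 0.027 (SD, n = 2) (two-sided exact permutation test, p = 0.8).

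No segment held more than 8.52% of a library. The leading segment was Ighv1-80 in 30 °C replicate 1, with 8.09% (95% Wilson confidence interval 7.88% to 8.30%). In 30 °C replicate 2 it was Ighv1-26 with 8.52% (8.26% to 8.78%), and in 30 °C replicate 3 Ighv1-26 with 6.86% (6.69% to 7.04%). For 4 °C replicate 1 it was Ighv1-53 with 5.74% (5.57% to 5.91%), and for 4 °C replicate 2 Ighv1-26 with 7.15% (6.86% to 7.46%). The intervals cover counting error only. They treat each read as a separate draw and are too narrow where duplicate reads of a molecule, which cannot be recognised, were counted. The mean share of the leading segment was 7.82% ± 0.858 (SD, n = 3) at 30 °C against 6.44% ± 1.00 (SD, n = 2) at 4 °C (two-sided exact permutation test, p = 0.4).

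Over the 5 libraries, weighted equally, the largest mean share was that of Ighv1-26 at 6.48% ± 1.70 (SD, n = 5). It held 5.94%, 8.52% and 6.86% at 30 °C and 3.92% and 7.15% at 4 °C, and the groups overlapped. Ighv1-53 followed at 3.90%, with 2.65%, 2.55% and 5.32% at 30 °C and 5.74% and 3.26% at 4 °C. Its order among libraries did not follow temperature. Ighv1-80 had a mean share of 3.82% and held 8.09%, 3.03% and 3.13% at 30 °C and 2.02% and 2.84% at 4 °C. The 2 values at 4 °C were the lowest, and the high mean at 30 °C came from replicate 1.
Below these were Ighv1-64 at 3.67%, Ighv5-17 at 3.19%, Ighv3-6, Ighv6-3 and Ighv9-3 at 3.13% each, Ighv1-82 at 3.01% and Ighv8-8 at 2.78%. Neighbours in this order from Ighv1-53 to Ighv8-8 differed by less than the spread of each over the libraries, which was 0.414 to 2.43 (SD, n = 5). Among them Ighv9-3 varied least, with 2.80%, 3.36% and 2.59% at 30 °C and 3.37% and 3.55% at 4 °C. Ighv8-8 held 2.86%, 2.14% and 1.57% at 30 °C and 5.64% and 1.69% at 4 °C, so that both the highest and nearly the lowest value were at 4 °C. Divided by exon length, which ranged from 294 to 480 bases in the functional genes, the 10 leading segments were the same 10.

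**Figure D2:**
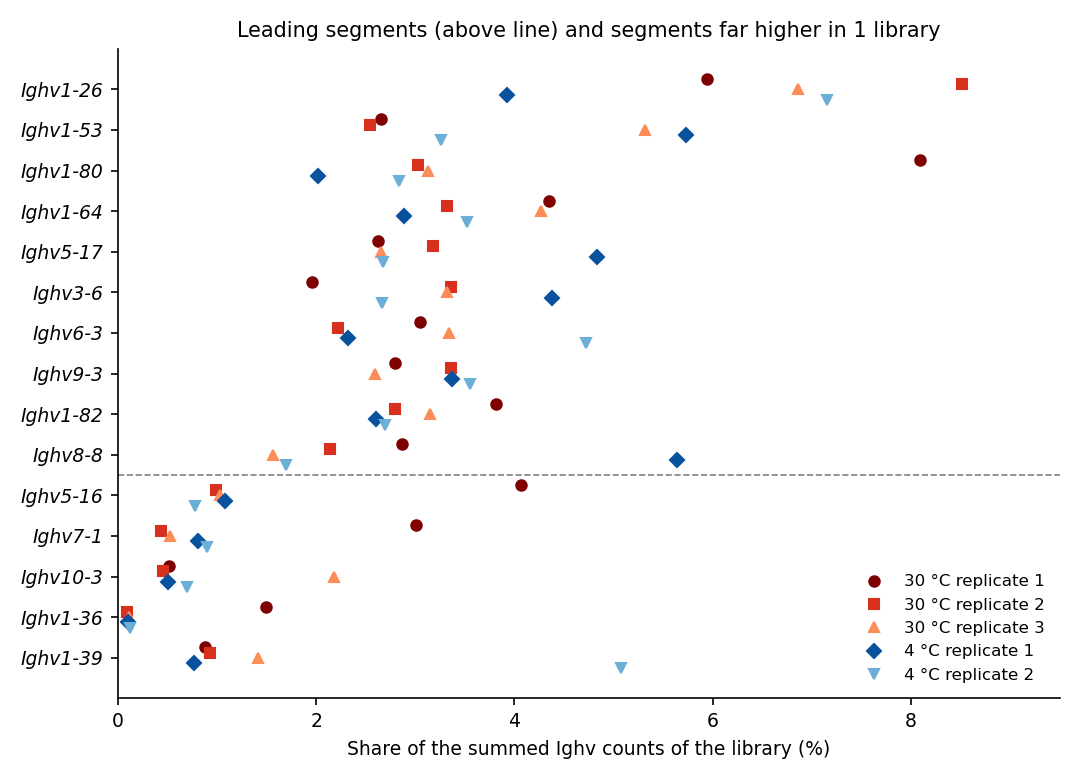
Share of the summed Ighv counts (%, linear axis) for the 10 leading segments (above the dashed line) and for the 5 segments that were over 3 times higher in 1 library than in any other (below it). Each symbol is 1 library, red shades at 30 °C and blue shades at 4 °C. Ighv1-26 ranges from 3.92% to 8.52%, and below the line 4 symbols lie together near the left and 1 lies apart.

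There were 5 segments with a share of at least 1% in a library that stood over 3 times higher there than in each other library. Of these, 3 were in 30 °C replicate 1. Ighv1-36 had 951 counts there (1.49%) and 41, 88, 75 and 34 in the other libraries (0.095% to 0.12%), which is 12.1 times the second highest share. Ighv5-16 held 4.07% there and 0.994%, 1.03%, 1.08% and 0.776% in the others. Ighv7-1, the V segment of the T15 idiotype of antibodies to phosphorylcholine, held 3.01% there and 0.437%, 0.530%, 0.811% and 0.900% in the others. For Ighv1-36 and Ighv5-16 the remaining libraries of both temperatures lay together. For Ighv7-1 both libraries at 4 °C lay above the other libraries at 30 °C.
Ighv10-3 held 2.18% in 30 °C replicate 3 and 0.458% to 0.700% in the other libraries. Ighv1-39 held 5.07% in 4 °C replicate 2, the library with the lowest summed Ighv level, and 0.764% to 1.42% in the others. In TMM-scaled CPM Ighv1-39 was highest there too, with 83.8 CPM against 27.7 to 48.0. Neither 30 °C replicate 2 nor 4 °C replicate 1 had such a segment. The rule took its members from these shares, so the values are a description. Just outside the limit of 3 lay Ighv5-9, which was 2.62 times higher in 30 °C replicate 2 than in the next library, and Ighv1-80, 2.59 times higher in 30 °C replicate 1.
In all, 51 segments reached 1% in at least 1 library. Of these, 12 varied by less than 2-fold over the libraries, and the median of the highest over the lowest share was 2.56. One that hardly varied was Ighv1-72 (V186.2, the main segment of the response to the hapten NP in this strain), with 1.33%, 1.40% and 1.50% at 30 °C and 1.40% and 1.42% at 4 °C.

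**Figure D3:**
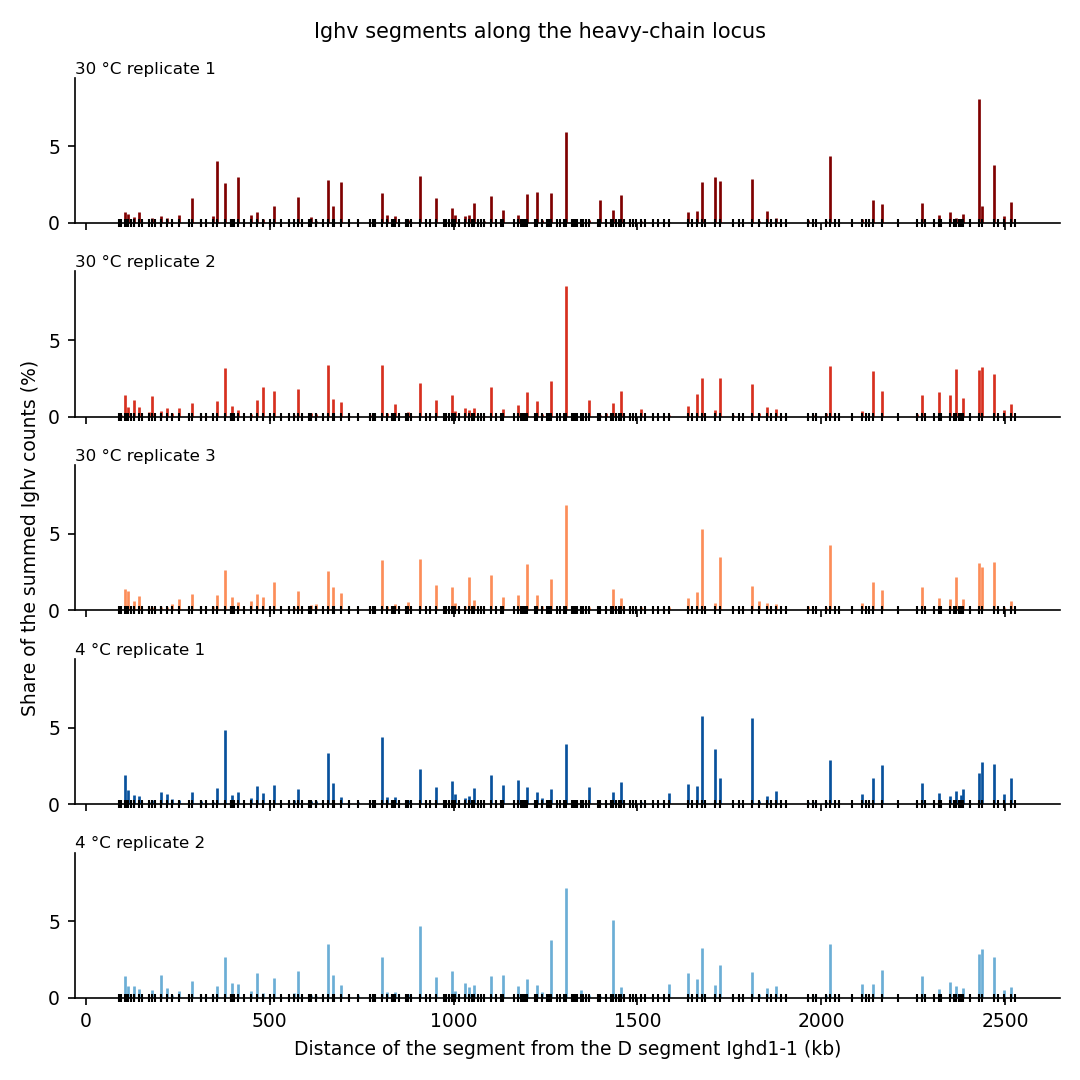
Share of the summed Ighv counts (%, linear axis) of each segment against its distance from the D segment Ighd1-1 (kb) in the 5 libraries, 1 panel each. Ticks on the base line mark all segments, also those at 0. The leading bar lies at Ighv1-26 in 30 °C replicates 2 and 3 and 4 °C replicate 2, at Ighv1-80 near the far end in 30 °C replicate 1 and at Ighv1-53 in 4 °C replicate 1, and counts are spread over the whole locus in all 5.

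Position in the locus was read next. The families nearest the D segments, Ighv5 and Ighv2, together held 13.1%, 13.2% and 12.2% of Ighv counts at 30 °C and 14.3% and 12.6% at 4 °C (two-sided exact permutation test, p = 0.6). The distal families Ighv1 and Ighv8 together held 62.6%, 63.3% and 61.7% at 30 °C and 62.9% and 61.9% at 4 °C (two-sided exact permutation test, p = 1). All 5 libraries lay close together for the distal families. The count-weighted median distance from Ighd1-1 was 1264 or 1306 kb in each library, at Ighv1-22 or Ighv1-26.
Ighv5-2 (81X), the functional segment next to the D segments and known for its frequent use in early B cell precursors, had 10, 45 and 51 counts at 30 °C and 64 and 12 at 4 °C, at most 0.105% of Ighv counts. The 7 genes of the list for B precursors and V(D)J recombination summed to 40.2 to 57.2 TMM-scaled CPM at 30 °C and 57.6 and 64.5 at 4 °C, most of it from Vpreb3 and Il7r, at 11.7 to 27.4 and 19.2 to 40.7 over the 5 libraries. Rag1, a subunit of the recombinase, stood at 1.54, 4.03 and 5.63 TMM-scaled CPM at 30 °C and 1.19 and 0.599 at 4 °C, and Igll1, a part of the surrogate light chain, at 0.905, 2.05 and 1.31 against 0.298 and 0.240. Segments annotated as pseudogenes or on unassigned rows held 0.151% to 0.193% of Ighv counts (two-sided exact permutation test, p = 1), and 49 of these 72 rows had no count in any library.

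By family, Ighv1 was the largest, with 93 rows and 58.5%, 59.3% and 58.5% of Ighv counts at 30 °C and 53.9% and 57.4% at 4 °C. Of 11 families with a mean share of at least 1%, 6 did not overlap between the groups. Among all genes scaled to the summed Ighv counts, 16.4% lay without overlap above at 4 °C and 0.93% below. The median log2 fold change of all genes on that scale was 0.59. This background is thus shifted upward by the scaling, and no excess of lower families can be read from it. Ighv1 and Ighv14 were lower at 4 °C, and Ighv2, Ighv4, Ighv8 and Ighv9 higher. Each of the 6 had the smallest p that the design allows (two-sided exact permutation test, p = 0.2, adjusted over the 11 families 0.367), so none passed. Any family without overlap has this p. The shares of a library have a fixed sum, so the 6 are not independent of one another.
Ighv8, of which Ighv8-8 is the leading member, held 4.19%, 3.97% and 3.17% at 30 °C and 9.02% and 4.46% at 4 °C, and the excess was that of 4 °C replicate 1. The difference of 2.96 percentage points was 0.68 without that library. Ighv14 held 5.98%, 4.64% and 4.89% at 30 °C and 3.10% and 4.25% at 4 °C. Ighv2 held 3.59%, 5.12% and 4.80% at 30 °C and 5.42% and 6.11% at 4 °C, Ighv4 0.732%, 1.07% and 1.05% against 1.20% and 1.66%, and Ighv9 3.85%, 4.03% and 3.65% against 4.20% and 4.23%. For Ighv2 and Ighv4 the lowest value was that of 30 °C replicate 1, and for Ighv9 all 5 values were close.
For Ighv3, Ighv5, Ighv6, Ighv7 and Ighv10 the groups overlapped. Ighv3 ranged from 2.76% to 6.46%, with both ends at 30 °C. Ighv7 was 4.19% in 30 °C replicate 1, where Ighv7-1 was high, and 1.65% to 2.58% elsewhere, and Ighv10 was 3.71% in 30 °C replicate 3, where Ighv10-3 was high, and 1.51% to 2.45% elsewhere.

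**Figure D4:**
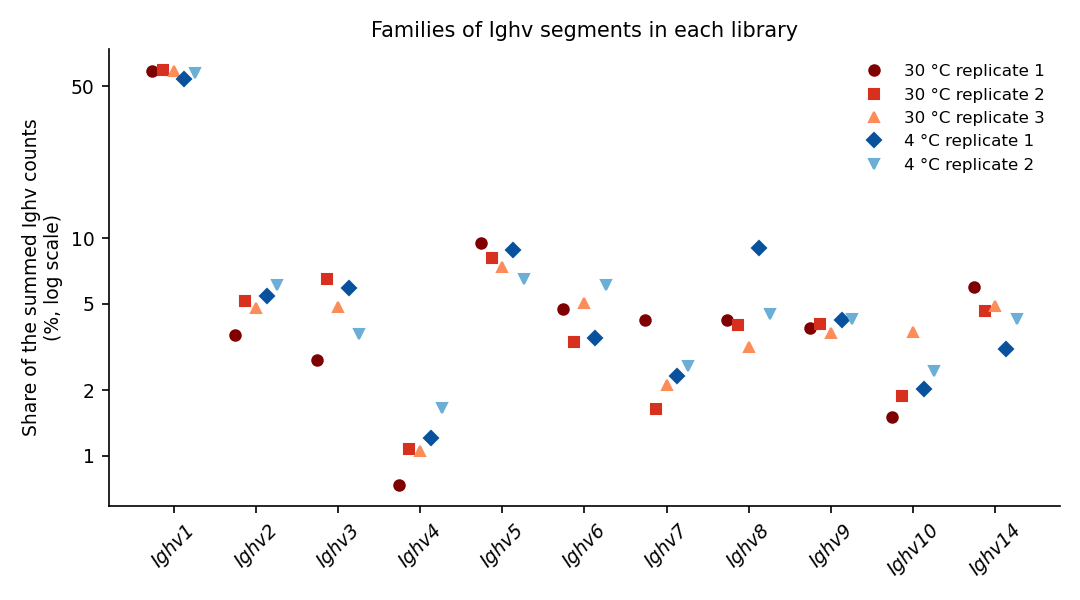
Share of the summed Ighv counts (%, log axis) of the 11 Ighv families with a mean share of at least 1%. Each symbol is 1 library, red shades at 30 °C and blue shades at 4 °C. Ighv1 lies at 53.9% to 59.3% in all libraries, and Ighv8 in 4 °C replicate 1 stands at 9.02%, above the other 4 libraries.

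Ighv11-2 and Ighv12-3, known from antibodies of B-1 cells (the innate-like B cells) to phosphatidylcholine, were rare. Ighv11-2 had 42, 44 and 187 counts at 30 °C and 198 and 80 at 4 °C, which are 0.066%, 0.102% and 0.241% of Ighv counts against 0.272% and 0.290%. The shares at 4 °C were higher than all at 30 °C, while the TMM-scaled CPM overlapped, at 2.24, 3.61 and 8.16 against 9.85 and 4.79. Ighv12-3 had 53, 9 and 32 counts at 30 °C and 33 and 9 at 4 °C, with overlap.
The last 300 bases of the exons of Ighv11-2 and its near copy Ighv11-1 are shown because the exons differ by 4 bases, marked in capitals, and because their counts differ much more. Ighv11-1 lies at chr12:113981879-113982178 and Ighv11-2 at chr12:114048241-114048540.
Ighv11-1: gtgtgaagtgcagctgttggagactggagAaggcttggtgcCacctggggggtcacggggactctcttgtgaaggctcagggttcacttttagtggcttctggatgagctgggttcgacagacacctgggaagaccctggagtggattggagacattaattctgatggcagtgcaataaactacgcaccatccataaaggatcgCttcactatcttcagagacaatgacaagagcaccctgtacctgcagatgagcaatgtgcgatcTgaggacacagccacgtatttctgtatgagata
Ighv11-2: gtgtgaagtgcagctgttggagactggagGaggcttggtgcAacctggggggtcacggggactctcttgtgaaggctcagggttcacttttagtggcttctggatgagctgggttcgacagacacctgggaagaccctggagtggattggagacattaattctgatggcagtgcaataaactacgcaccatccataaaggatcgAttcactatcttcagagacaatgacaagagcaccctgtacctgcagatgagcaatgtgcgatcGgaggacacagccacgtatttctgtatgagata
Ighv11-1 had 0, 5 and 5 counts at 30 °C and 0 and 6 at 4 °C, against 42 to 198 for Ighv11-2. Reads that cover none of the 4 positions could belong to either.

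Other rows are uncertain for the same reason. The exons of Ighv1-62-2 and Ighv1-71 are identical, and only 9.68% and 3.08% of the 100-base windows of their transcripts were found in no other segment. Ighv1-62-2 had 128, 23 and 215 counts at 30 °C and 98 and 18 at 4 °C, and Ighv1-71 33, 65 and 15 against 13 and 11, so that how the counts were split between them cannot be read from the table. Ighv1-62-3 and Ighv1-72 differ by 3 bases, and the pairs Ighv1-20 and Ighv1-37 and Ighv1-52 and Ighv1-61 by 4. Of the 113 functional segments, 33 differ from their nearest neighbour by 10 bases or fewer, and 75 have only 100-base windows that no other segment holds. Somatic mutation in B cells adds differences from the germline that the counts do not show.

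Each segment was then compared between 4 °C and 30 °C in a fit over all 16133 genes that passed the filter on low counts. Of the 131 segments with a count, 100 passed it, 96 of them functional genes. None was called at an adjusted p under 0.05 by the quasi-likelihood test of edgeR, where 0.0% of all genes were called and no adjusted p lay below 0.689. Without adjustment, 3 segments higher at 4 °C (2.58% of all genes) and 14 lower (4.17% of all genes) had a p under 0.05. The Wald test of DESeq2 called 3 of the 97 segments to which it gave an adjusted p (0.741% of all genes). Ighv8-5 was higher at 4 °C (0.139% of all genes), and Ighv5-9-1 and Ighv14-4 were lower (0.602% of all genes).
The middle of the segments lay below 0. Of the 100, 70 were lower and 30 higher at 4 °C, against 49.3% lower over all genes, and the median log2 fold change was −0.42 against 0.0064. This median was −0.044 without 4 °C replicate 2 and −1.20 without 4 °C replicate 1, so it depended on which library at 4 °C was kept. It was −0.27 without 30 °C replicate 2, −0.25 without 30 °C replicate 3 and −0.42 with the acinar genes removed from all libraries. In 30 °C replicate 2 the 24 pancreatic acinar genes summed to 272772 CPM before TMM scaling (2693 in 4 °C replicate 2 and at most 83.8 in the other libraries).

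Among the segments with the smallest p, Ighv8-5 had the largest positive fold change. It stood at 1.60, 3.29 and 6.77 TMM-scaled CPM at 30 °C and 26.1 and 15.0 at 4 °C, without overlap, a log2 fold change of 2.39 ± 0.58 (SE) with an adjusted p of 0.689 in edgeR and of 0.016 in DESeq2. With edgeR scaled to the summed Ighv counts its adjusted p was 0.022 and it was the 1 segment called (0.0248% of all genes), and with the replicate number as a block its adjusted p was 0.038 and it again was the 1 segment called (0.273% of all genes). In shares it held 0.047%, 0.093% and 0.200% at 30 °C and 0.720% and 0.911% at 4 °C. It is 12 bases from Ighv8-8, and 90.7% of its 100-base windows occur in no other segment.
Ighv2-5 stood at 14.4, 12.2 and 7.90 TMM-scaled CPM at 30 °C and 28.1 and 24.6 at 4 °C, a log2 fold change of 1.20 ± 0.28 (SE) with an edgeR adjusted p of 0.689. Ighv7-4 stood at 1.49, 1.31 and 2.27 against 3.93 and 3.47 (log2 fold change 1.12 ± 0.38, SE). Both were without overlap, and they and Ighv8-5 were the 3 segments with both libraries at 4 °C above all at 30 °C, against 12.2% of all genes. For Ighv1-50 (log2 fold change 0.54) and Ighv1-77 (1.33) the groups overlapped in TMM-scaled CPM. Ighv1-50 was at 0.084 without 4 °C replicate 1 and at 0.87 without 4 °C replicate 2. Ighv1-77 was 20.7 in 4 °C replicate 1 and 3.06 to 5.67 in the other libraries, and without that library its log2 fold change was −0.63, against 2.11 without 4 °C replicate 2.
On the lower side, Ighv5-9-1 had the smallest p of the segments. Its values were 16.9, 20.5 and 24.6 TMM-scaled CPM at 30 °C and 9.65 and 7.49 at 4 °C, a log2 fold change of −1.27 ± 0.26 (SE) with an adjusted p of 0.689 in edgeR and of 0.0085 in DESeq2. Ighv1-26, the leading segment, stood at 202, 301 and 232 CPM at 30 °C and 142 and 118 at 4 °C (log2 fold change −0.91 ± 0.23, SE, edgeR adjusted p 0.689), although its shares overlapped. Ighv1-11 stood at 3.09, 5.75 and 5.50 against 1.69 and 1.20 (log2 fold change −1.72 ± 0.44, SE).
Pseudogenes completed the lower side. Ighv1-21 had 16, 9 and 31 counts at 30 °C and 2 and 4 at 4 °C. Ighv1-70 had 15, 2 and 12 counts at 30 °C and 0 in both libraries at 4 °C. Its mean at 30 °C, 0.4955 TMM-scaled CPM, was 2.76 times a floor of 3 counts in 4 °C replicate 2. That bound leaves out counting error at 30 °C, where replicate 2 itself had fewer than 3 counts. Both pseudogenes passed the filter on low counts only through libraries at 30 °C. They could therefore enter the fit only as lower at 4 °C, and their p is no support for a lower level. Both are included in the numbers of segments given here as lower at 4 °C. Ighv14-4, named for its call by DESeq2 and chosen after its values were seen, stood at 90.9, 34.2 and 38.5 CPM at 30 °C and 18.0 and 13.5 at 4 °C (DESeq2 adjusted p 0.027, edgeR adjusted p 0.689), with 30 °C replicate 1 far above the other libraries.
In TMM-scaled CPM, 18 segments had both libraries at 4 °C below all at 30 °C, where 11.0% of all genes did. Scaled to the summed Ighv counts, 18 segments lay without overlap above (16.4% of all genes on that scale) and 12 below (0.93% of all genes). On that scale the median log2 fold change of the segments was −0.043 and that of all genes 0.59, so the 2 backgrounds differ by the scaling itself.

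**Figure D5:**
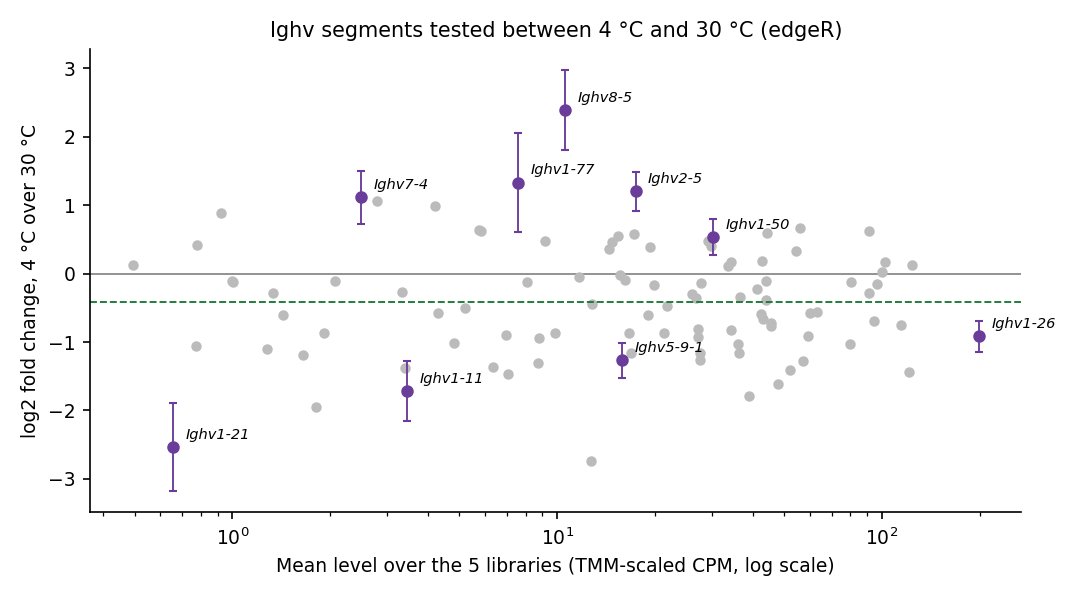
Log2 fold change between 4 °C and 30 °C (edgeR) against the mean level over the 5 libraries (TMM-scaled CPM, log axis) for 99 of the 100 tested Ighv segments, without Ighv1-70, whose libraries at 4 °C are at 0. Purple points with bars (SE) are the named segments with the smallest p in each direction, and the dashed line is the median of all 100 segments at −0.42. Ighv8-5 lies highest at 2.39, and more points lie below 0 than above.

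Libraries were at last compared as wholes by the Bray-Curtis distance of their Ighv shares, which is 0% for equal shares and 100% for no segment in common. Across 4 pairs at the same temperature it was 17.0% to 26.7% with a median of 23.5%, and across 6 pairs at different temperatures 19.0% to 28.9% with a median of 23.0%. The ranges of the 2 kinds of pair overlapped. The most distant library was 30 °C replicate 1, whose 4 pairs stood at 24.4% to 28.9%, and Ighv1-80 contributed most to each of them. The nearest pair was 30 °C replicates 2 and 3 at 17.0%. Spearman rho across the 131 segments with a count was 0.905 to 0.952, a description across segments that share their library.

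Genes around the segments were read from lists written for the cell types. None of their members was called by edgeR. Over all genes tested, 49.3% were lower at 4 °C with a median log2 fold change of 0.0064, and 2.58% were higher with an unadjusted p under 0.05. Of 13 B cell genes all 13 were higher at 4 °C with a median log2 fold change of 0.70, and 3 had a p under 0.05 before adjustment (2.58% of all genes). All 7 genes of the germinal centre list (median 0.48), all 7 of the B-1 and marginal zone list (0.72) and all 12 of the T cell list (0.95) were higher too, and 10 of the T cell genes had an unadjusted p under 0.05 (2.58% of all genes). Cd5 stands in both the T cell list and the B-1 and marginal zone list, so these lists are not separate. It was the 1 gene of the B-1 and marginal zone list with an unadjusted p under 0.05. T cell genes summed to 410 to 644 TMM-scaled CPM at 30 °C and 894 and 981 at 4 °C. The 11 plasma cell genes were split into 6 higher and 5 lower (median 0.23).
Of the constant genes, Ighd, the gene of IgD on naive B cells, and Ighm had an unadjusted p under 0.05. Ighd stood at 254, 258 and 384 TMM-scaled CPM at 30 °C and 519 and 542 at 4 °C, and Ighm at 4126, 4518 and 6227 against 7348 and 7085. The IgG genes Ighg1, Ighg2b, Ighg2c and Ighg3 had log2 fold changes of −0.19 to −0.48 with overlap of the groups. Of 6 tested genes of the precursor list, 3 were higher and 3 lower at 4 °C (median −0.38). Rag1 and Igll1, both lower, had an unadjusted p under 0.05 (4.17% of all genes), while Vpreb3 and Il7r had log2 fold changes of 0.64 and 0.55 that did not reach it. Spleen mesenchyme genes (Tlx1, Nkx2-5 and Nkx2-3) summed to 32.5 to 41.3 TMM-scaled CPM at 30 °C and 57.2 and 61.2 at 4 °C, and their part in the Ighv values was not tested.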

How the data were processed

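RNA of 5 samples labelled as CRC tumours was sequenced, 3 from mice at 30 °C and 2 from mice at 4 °C. The deposited table holds whole numbers per gene, used here as counts without normalization. The study's methods give featureCounts and Gencode vM19 for the authors' counts, whereas the submitters' notes name RSEM, with fastp, HISAT and GRCm38, so the tool that made the table is not settled. The strand setting and the handling of reads that fit several genes are not given in the sources used here, and such reads bear on near-identical segments. Library sizes were 16191708 to 20320525 counts, and rows without a gene name (0.0101% to 0.0170% of counts) were left out. Intervals and floors cover counting error only.

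Rows named Ighv were summed per library. All named genes were filtered with filterByExpr, scaled by TMM and tested with the quasi-likelihood test of edgeR 4.0.16 in R 4.3.3, with Benjamini-Hochberg adjustment over all 16133 genes. Single values per library were compared by exact permutation tests (scipy 1.17.1). Bases that differ between exons were counted with edlib 1.3.9.post1 on GENCODE M21 transcripts of GRCm38. The members and lists were chosen with earlier results of these data known. Segments named are the 10 with the largest mean share, the leader of each library, the 5 with the smallest p in each direction, those with at least 1% in a library and over 3 times every other library, and 5 known from textbooks. Alternatives were DESeq2 1.42.0, other scalings and filters, a replicate block, each library left out and, chosen after seeing the data, counts divided by exon length. On simulated data with 200 genes changed by a log2 of 2, edgeR recovered 64% at a false share of 5.19% and DESeq2 68% at 17.1%. The simulation gave all genes the same spread between replicates and changed only genes above a limit on the mean count. These percentages therefore do not measure recovery for the Ighv segments in the real libraries.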

Additional observations from a re-analysis of the deposited data

How the results depend on the processing

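With 3 libraries against 2, no exact test of a single value could reach 0.05, so its p says nothing about stability. Of the segments tested, edgeR called 0 at an adjusted p under 0.05. DESeq2 called 3, edgeR scaled to the summed Ighv counts 1 (Ighv8-5), and an unadjusted p under 0.05 was met by 17. With each library left out in turn the count was 0 to 0, with the lone library at 4 °C assumed to vary like the others. The median log2 fold change of the 100 segments tested, −0.42, was −0.38 with upper-quartile scaling and −0.043 scaled to the summed Ighv counts. It was −1.20 to −0.044 with each library left out, where 97 to 105 segments passed the filter. With DESeq2 it was −0.35 and without a filter −0.33, both over the 131 segments with a count, so the set of segments differs there too. The difference in the effective number of segments ranged from 0.092 to 3.07 and that in the share of the leading segment from −2.09 to −0.67 percentage points. The difference in the summed level ranged from −1.06 to 0.074 with each library left out. Differences in percentage points ranged from −0.17 to 1.86 for the 10 leading segments, from −0.21 to 1.44 for the proximal and from −0.66 to 0.34 for the distal families, from −0.014 to 0.0071 for pseudogenes, from −1.04 to 1.22 for Ighv3, from −1.82 to 0.52 for Ighv5, from −0.89 to 1.73 for Ighv6, from −0.70 to 0.57 for Ighv7 and from −0.56 to 0.54 for Ighv10. The log2 fold change of Ighv1-77 ranged from −0.63 to 2.11. Divided by exon length, the difference in the distal families was 0.012. The causes of these changes were not tested. Depth limits the segments with few counts, since 3 counts are 0.148 to 0.185 CPM.

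The labels do not say that replicate numbers pair the libraries. Deviations of same-numbered libraries correlated at −0.25 for number 1 and 0.26 for number 2 over 16133 genes, which cannot settle it, since the deviations of the 2 libraries at 4 °C mirror each other. With the replicate block, 1 segment was called (Ighv8-5, edgeR adjusted p 0.038, where 0.273% of all genes were called), the median log2 fold change was −0.34, and the differences for pseudogenes and Ighv10 reversed to 0.0071 and 0.54 percentage points. This block uses 2 pairs and leaves 30 °C replicate 3 without a partner.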
